A study of Homo sapiens with 6 samples.

Results

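The genes described here carry a ZNF symbol, the name given to human zinc-finger genes, and were well expressed in DLD-1, a line grown from a human colorectal tumour. A gene belonged to the set when its symbol was ZNF followed by a number, with at most 1 letter after it, and its mean over the 6 libraries was at least 5 CPM (counts scaled to library totals of equal size). Of 56638 listed symbols, 554 fitted the name pattern and 308 of these reached 5 CPM. The genes were thus chosen by their mean level over both groups, and these levels ran from 5.03 to 252 CPM, with a median of 18.7 CPM. Just inside the threshold were ZNF699 at 5.03 CPM, ZNF555 at 5.10 CPM and ZNF763 at 5.20 CPM. Just outside it were ZNF718 at 4.98 CPM, ZNF14 at 4.90 CPM and ZNF519 at 4.80 CPM.

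Most ZNF proteins hold rows of C2H2 fingers, short loops in which cysteines and histidines grip a zinc ion and each finger reads a few bases of DNA. Many also carry a KRAB box near the amino end, which recruits TRIM28 and with it the histone methyltransferase SETDB1, and such proteins are best known as repressors of transposable elements and of genes near them. KRAB zinc-finger genes arose by repeated duplication, lie in clusters, above all on chromosome 19, and many are near-copies of each other. Other ZNF proteins work in chromatin complexes, at promoters, on RNA or ribosomes, or at the spindle.

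The study transfected DLD-1 cells at passages 16 to 19 with lncSLCC1 siRNA or with control siRNA, and sequenced total RNA of 3 libraries in each group. The long non-coding RNA lncSLCC1 is listed as RP11-400N13.2, and the design asks which genes differ when it is targeted. The sources used here give neither the siRNA sequences nor the dose or time of harvest, so 1 siRNA cannot be told from several. Whether the libraries of a group were separate cultures is not stated in the labels, so the p-values rest on a spread that may be technical.

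Gene reads per library numbered 12572277 to 15262872 in the lncSLCC1 siRNA group and 14873343 to 15568075 in the control siRNA group. RP11-400N13.2 was at 1.66, 2.62 and 2.10 CPM in lncSLCC1 siRNA libraries and at 5.20, 9.31 and 9.04 CPM in control siRNA libraries, a log2 fold change of -1.88 (SE 0.264, edgeR adjusted p = 0.0027). Of 12 epithelial and colorectal markers, 9 reached 1 CPM, led by KRT8 at 3513 CPM, while CDX1, CEACAM5 and CEACAM6 did not. Of 15 leukocyte, fibroblast and endothelial markers only CD14 at 1.37, COL1A1 at 1.81 and VWF at 1.63 CPM reached 1 CPM. The 6 fibroblast markers summed to 3.06 to 3.27 CPM in lncSLCC1 siRNA libraries and to 2.21 to 2.73 CPM in control siRNA libraries, with 2 of them at 0 in all libraries, and their part in the results was not tested. The leukocyte and endothelial sums overlapped between the groups. Control siRNA replicate 1 stood apart: per gene, the chi-square statistic of its counts against control siRNA replicates 2 and 3 was 17.3 and 30.6. It was 5.91 between these last and 1.86 to 1.99 among lncSLCC1 siRNA libraries. In control siRNA replicate 1, ribosomal protein genes took 4.49% of gene reads, and they took 3.25% to 4.49% over the 6 libraries. Counts over the set and over the genes with a KRAB pattern (described below) are given with and without it, as are values of some named genes. The shares without overlap, the lists by known work and the run signs rest on all 6 libraries. So do the GC, finger, chromosome and word-sharing descriptions.

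The KRAB box shows in a short stretch of the coding sequence. KRAB presence was read from translated GENCODE 29 coding sequences as a pattern of 8 residues in the first 250, which holds a tyrosine, then 2 residues, then valine and methionine. It was found in 133 of the 301 ZNF genes with a coding sequence, and 168 did not hold it. The pattern misses some known KRAB genes, such as ZNF133, so genes without it are not genes without a KRAB box. The 24 bases that code for it are shown for the 5 genes that hold the pattern among the 10 with the largest rises; capitals mark the codons for valine and methionine.
ZNF616: tacaaggatGTGATGttggagaac
ZNF138: tataggcatGTGATGttagagaac
ZNF845: tacagggacGTGATGctggagaat
ZNF267: tatcaggatGTGATGttagaaaac
ZNF765: tacagggacGTGATGctggagaat
On GRCh38 these bases lie in coding exons at chr19:52123945-52123968 (-), chr7:64814999-64815022 (+), chr19:53345587-53345610 (+), chr16:31884579-31884602 (+) and chr19:53402146-53402169 (+). ZNF845 and ZNF765 were identical over the 24 bases, and 4 genes of the set shared that stretch. The codons GTGATG were used by 119 of the 133 genes, and the others used another valine codon.

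ZNF transcripts were more often higher than lower in lncSLCC1 siRNA libraries. All 308 genes were tested among 15242 genes, and 48 rose while 7 fell at an edgeR adjusted p under 0.05. That is 15.6% higher and 2.27% lower, where 6.46% and 7.39% of all genes tested were called higher and lower. The median log2 fold change was 0.19 over the 308 genes (25th to 75th percentile -0.04 to 0.43) and 0.01 over all genes tested. Values above 0 were found for 212 genes and below 0 for 96, and at an unadjusted p under 0.05 there were 106 higher and 17 lower. Every lncSLCC1 siRNA library was above every control siRNA library for 121 genes (39.3%), where the share of all genes tested was 19.4%, and below for 24 (7.79%), where it was 19.6%. The rises were moderate: over the 48 genes the median fold was 1.55, and 8 reached 2-fold. In bulk RNA, a change in the share of cells that express a gene cannot be told apart from a change per cell.

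**Figure D1:**
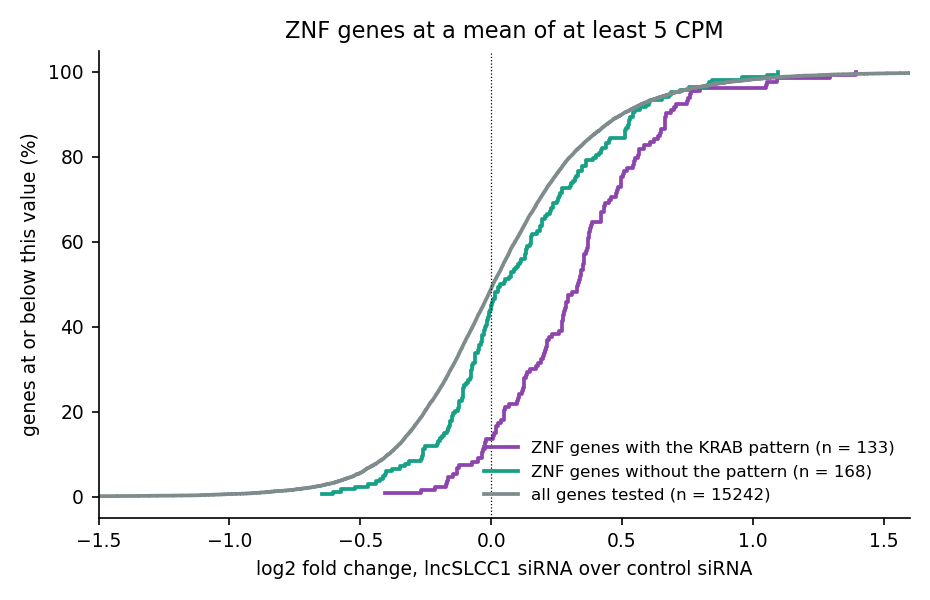
Cumulative share of genes (percent, vertical axis) at or below each log2 fold change (lncSLCC1 siRNA over control siRNA, horizontal axis), for ZNF genes with and without the KRAB pattern and for all genes tested. By their medians, the 133 genes with the pattern centre at 0.33, the 168 without it at 0.04 and all 15242 genes tested at 0.01.

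The count depends on single libraries. Without control siRNA replicate 1, 83 genes were higher and 22 lower, the median was 0.11, and all 48 and 7 calls were kept. Without control siRNA replicate 3 the counts were 87 and 13, and without control siRNA replicate 2 they were 12 and 0. Leaving out lncSLCC1 siRNA replicate 1, 2 or 3 left 10, 8 and 5 higher and 0 lower. Calls over all genes tested moved too, with 213 to 2112 higher in these 6 fits. Higher calls made up 3.25% of the ZNF genes without lncSLCC1 siRNA replicate 1, where they made up 1.75% of all genes tested, and 2.6% without lncSLCC1 siRNA replicate 2, where the share of all genes was 1.43%. Without lncSLCC1 siRNA replicate 3 the share of the ZNF genes, 1.62%, was near that of all genes, 1.37%. The shares were 3.9% of the ZNF genes and 1.69% of all genes without control siRNA replicate 2, 26.9% and 13.5% without control siRNA replicate 1, and 28.2% and 10.3% without control siRNA replicate 3. Lower calls made up 15.5% of all genes tested without control siRNA replicate 1 and 13.4% without control siRNA replicate 3. In the other fits they made up 1.56% to 2.26% of all genes. The median log2 fold change of the ZNF genes ran from 0.11 to 0.24 over the 6 fits. ZNF616, ZNF629, ZNF702P, ZNF721 and ZNF761 were called higher in each of the 6.

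The level of the whole set by library shows where the difference lies. The summed level of the 308 genes was 8835, 8905 and 8787 CPM in lncSLCC1 siRNA libraries, and 7360, 8229 and 8484 CPM in control siRNA libraries. The groups did not overlap, control siRNA replicate 1 was the lowest, and control siRNA replicate 3 was nearest to the lncSLCC1 siRNA libraries. Control siRNA replicate 1 was the lowest library for 173 genes and the highest for 72. Genes with the KRAB pattern summed to 2815, 2880 and 2844 CPM in lncSLCC1 siRNA libraries, and to 1962, 2352 and 2472 CPM in control siRNA libraries. Genes without the pattern summed to 5829, 5835 and 5751 CPM in lncSLCC1 siRNA libraries and to 5222, 5699 and 5835 CPM in control siRNA libraries, and here the groups overlapped. With 3 libraries against 3, an exact permutation test of such sums cannot go below p = 0.1, and none is given.

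**Figure D2:**
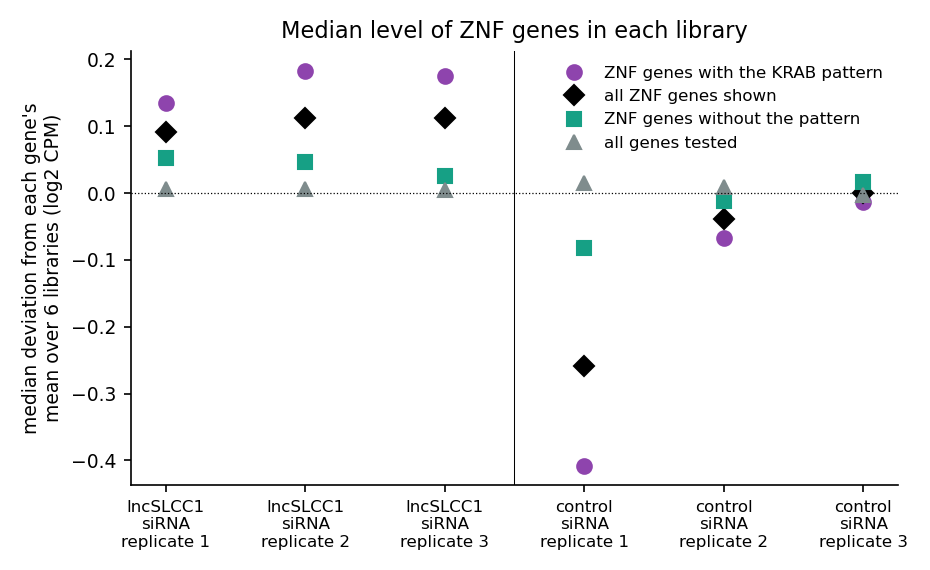
Median over genes of the deviation of each library's log2 CPM from the gene's mean over the 6 libraries, with lncSLCC1 siRNA libraries on the left and control siRNA libraries on the right. Genes with the KRAB pattern were at 0.13 to 0.18 in lncSLCC1 siRNA libraries and at -0.41, -0.07 and -0.01 in control siRNA replicates 1, 2 and 3.

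Of the 48 rises, 30 were of genes with the KRAB pattern. These are 22.6% of the 133 such genes, and 0 fell in the edgeR test, and 63 were higher and 0 lower at an unadjusted p under 0.05. DESeq2 called 33 higher and 0 lower, and limma-voom 30 and 0. Their median log2 fold change was 0.33 and 115 of them were above 0. Of the 168 genes without the pattern, 17 rose (10.1%) and 7 fell (4.17%), with a median of 0.04. The difference between these groups of genes was not tested. Of the 7 genes with no coding sequence matched, ZNF702P alone was called. Without control siRNA replicate 1, the median with the pattern was 0.21, with 47 higher and 2 lower, and 0.03 without it. A looser KRAB pattern, chosen after the data were seen, put 158 genes in the class, of which 32 were higher and 1 lower.

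The largest rise was that of ZNF702P, annotated as a transcribed processed pseudogene on chromosome 19. It was at 9.83, 11.3 and 11.1 CPM in lncSLCC1 siRNA libraries and at 2.71, 4.75 and 4.68 CPM in control siRNA libraries (log2 fold change 1.40, SE 0.196, adjusted p = 0.0027). Each control siRNA value was under 5 CPM, so ZNF702P reached the threshold of the set through the lncSLCC1 siRNA libraries. Of the 31-base words of its transcript, 27.7% also occur in a transcript of another gene, so some of its reads may belong to relatives. ZNF616, a KRAB gene with 21 finger patterns on chromosome 19, was at 14.3, 16.7 and 15.2 CPM in lncSLCC1 siRNA libraries and at 5.34, 5.34 and 6.90 CPM in control siRNA libraries. Its log2 fold change was 1.39 (SE 0.144, adjusted p = 0.000497), and only 4.53% of its words are shared. In both genes the groups lay far apart, and both calls held with any 1 library left out.

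ZNF629, with 19 finger patterns and no KRAB pattern, had the smallest adjusted p of the set. It was at 21.5, 20.6 and 19.3 CPM in lncSLCC1 siRNA libraries and at 9.18, 9.70 and 9.82 CPM in control siRNA libraries (log2 fold change 1.10, SE 0.110, adjusted p = 0.000457). Here control siRNA replicate 1 did not stand apart, the transcript is GC-rich (57.2%) and 0.248% of its words are shared. ZNF721 on chromosome 4 was at 70.8, 68.2 and 68.3 CPM in lncSLCC1 siRNA libraries and at 28.97, 41.5 and 44.8 CPM in control siRNA libraries (log2 fold change 0.84, SE 0.144, adjusted p = 0.0066). ZNF18, on chromosome 17, was at 10.3, 11.1 and 13.0 CPM in lncSLCC1 siRNA libraries and at 7.05, 4.62 and 6.05 CPM in control siRNA libraries (0.96, SE 0.172). In ZNF18 control siRNA replicate 1 was the highest of the controls. Without lncSLCC1 siRNA replicate 3 its adjusted p was 0.0534.

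In the other large rises control siRNA replicate 1 was the lowest library. ZNF138, on chromosome 7, was at 18.6, 17.9 and 17.8 CPM in lncSLCC1 siRNA libraries and at 2.99, 9.83 and 9.11 CPM in control siRNA libraries (log2 fold change 1.30, SE 0.308, adjusted p = 0.024). ZNF117, which lies on the same chromosome, was at 10.96, 12.5 and 12.1 CPM in lncSLCC1 siRNA libraries and at 2.35, 6.90 and 7.74 CPM in control siRNA libraries (1.05, SE 0.309, adjusted p = 0.049). Without control siRNA replicate 1 the log2 fold changes of ZNF138 and ZNF117 were 0.93 and 0.69, both still called. ZNF117 also lost its call with DESeq2 size factors (adjusted p = 0.0513) and with library totals (adjusted p = 0.0588). Both calls were lost without any 1 lncSLCC1 siRNA library or without control siRNA replicate 2, at adjusted p of 0.0568 to 0.0883 for ZNF138 and 0.113 to 0.161 for ZNF117. ZNF267, on chromosome 16, was at 18.8, 18.8 and 21.0 CPM in lncSLCC1 siRNA libraries and at 6.26, 10.1 and 11.7 CPM in control siRNA libraries. ZNF845, on chromosome 19, was at 10.5, 13.15 and 13.6 CPM in lncSLCC1 siRNA libraries and at 4.06, 6.31 and 6.96 CPM in control siRNA libraries. Their adjusted p values were 0.0084 and 0.0077, and without lncSLCC1 siRNA replicate 3 they were 0.0534 and 0.0507.

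**Figure D3:**
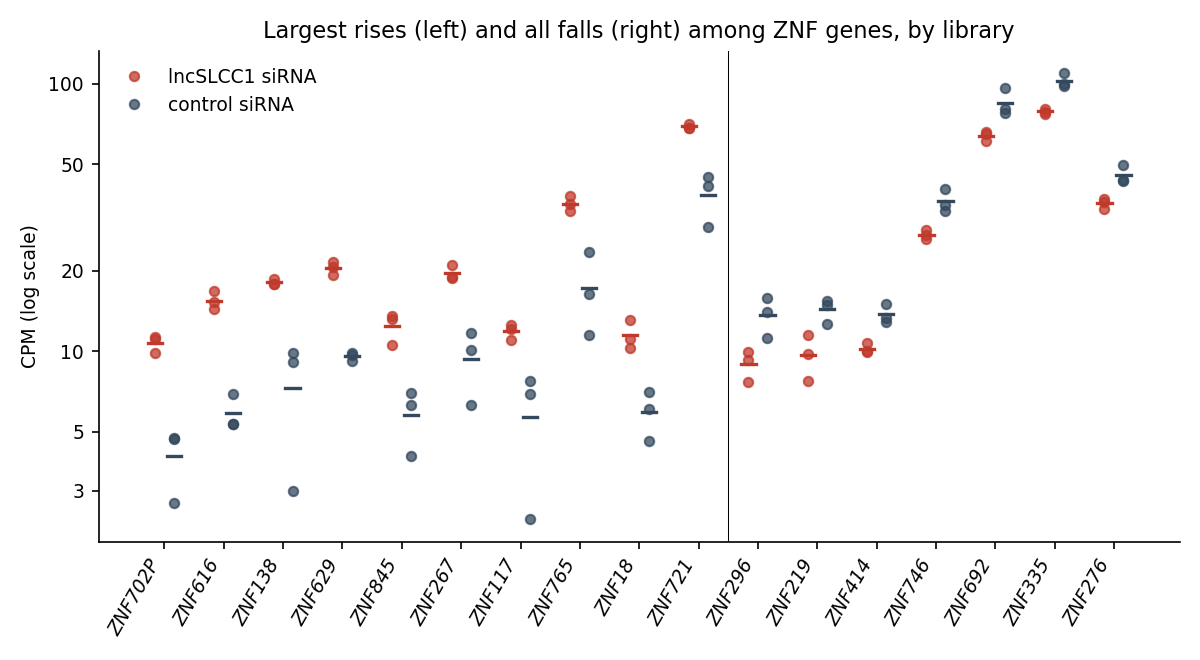
CPM in every library (log axis, points) for the 10 ZNF genes with the largest called rises and for the 7 called falls, with lncSLCC1 siRNA left of control siRNA for each gene and a bar at each group mean. The genes were picked among called genes whose groups do not overlap. In ZNF138 and ZNF117 1 control library lies well below the other controls.

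Among ZNF proteins known or reported to repress transposable elements, rises were also found. Of the 16 genes listed, 12 were tested and 10 belong to the set. Of the 12, 2 rose and 0 fell. The rises are 16.7%, near the 15.6% of the 308 genes, where 6.46% of all genes tested rose. The median log2 fold change of the 12 was 0.35, and all 12 were above 0. The absence of falls comes from the edgeR test, in which 7 of the 12 were higher and 0 lower at an unadjusted p under 0.05. ZNF91, a repressor of SVA and LINE-1 retrotransposons, was at 33.9, 31.2 and 31.5 CPM in lncSLCC1 siRNA libraries and at 11.5, 21.7 and 23.6 CPM in control siRNA libraries (0.76, SE 0.215, adjusted p = 0.043). ZNF765 was at 37.9, 35.5 and 33.3 CPM in lncSLCC1 siRNA libraries and at 11.5, 16.3 and 23.6 CPM in control siRNA libraries (1.05, SE 0.208, adjusted p = 0.0119). Both calls were lost without any 1 lncSLCC1 siRNA library or without control siRNA replicate 2, at adjusted p up to 0.135 for ZNF91 and 0.0734 for ZNF765. Both were called without control siRNA replicate 1, with log2 fold changes of 0.51 for ZNF91 and 0.83 for ZNF765. ZNF91 shares 25.1% and ZNF765 22.2% of its words with other genes. ZNF445, which helps to keep genomic imprints, was at 66.0, 64.1 and 61.2 CPM in lncSLCC1 siRNA libraries and at 56.7, 56.1 and 63.96 CPM in control siRNA libraries, and the groups overlapped (adjusted p = 0.412).

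No rise was called among the partners through which KRAB boxes act. Of 31 tested genes of a KRAB corepressor list, 0 rose in the edgeR test and 3 fell (9.68%, near the 7.39% of all genes tested); 2 were higher at an unadjusted p under 0.05, and DESeq2 and limma-voom called 0 higher. TRIM28, the protein that KRAB boxes bind, was at 766, 759 and 722 CPM in lncSLCC1 siRNA libraries and at 976, 819 and 753 CPM in control siRNA libraries. The groups overlapped in TRIM28, and its log2 fold change was -0.18 (95% interval -0.40 to 0.04, adjusted p = 0.236). SETDB1 was at 37.2, 36.8 and 36.8 CPM in lncSLCC1 siRNA libraries and at 39.4, 34.6 and 39.3 CPM in control siRNA libraries (-0.03, 95% interval -0.24 to 0.18). ZNF274, a ZNF protein that brings SETDB1 to zinc-finger gene clusters, was at 42.0, 45.2 and 43.9 CPM in lncSLCC1 siRNA libraries and at 49.2, 43.3 and 42.0 CPM in control siRNA libraries (adjusted p = 0.830). The 3 that fell were UHRF1, which maintains DNA methylation (log2 fold change -0.48, adjusted p = 0.0047), MBD3, a NuRD subunit (-0.49, adjusted p = 0.013), and SUV39H1, a histone H3 lysine methyltransferase (-0.56, adjusted p = 0.0149). UHRF1 was called with any 1 library left out, whereas MBD3 and SUV39H1 were not called without any 1 lncSLCC1 siRNA library or without control siRNA replicate 2, at adjusted p up to 0.0804 and 0.0835.

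Other lists held ZNF proteins with other known work. Of 15 tested genes of chromatin complexes, 14 of them in the set, 0 rose and 2 fell, ZNF335 and ZNF296. The falls are 13.3% of the list, where 7.39% of all genes tested fell and 6.46% rose. At an unadjusted p under 0.05, 0 were higher and 2 lower. ZNF335, a subunit of a histone H3 methyltransferase complex, was at 77.3, 80.7 and 78.4 CPM in lncSLCC1 siRNA libraries and at 109, 99.9 and 98.1 CPM in control siRNA libraries (log2 fold change -0.38, SE 0.081, adjusted p = 0.016). ZNF217, an oncoprotein that works with CoREST, was at 70.5, 72.9 and 76.9 CPM in lncSLCC1 siRNA libraries and at 53.3, 70.9 and 76.8 CPM in control siRNA libraries, with overlap (adjusted p = 0.519). Of 17 tested promoter-binding factors, 16 of them in the set, 2 rose and 2 fell (11.8% each, where 6.46% and 7.39% of all genes tested were called). ZNF76, a relative of the promoter-bound activator ZNF143, rose: it was at 37.1, 37.9 and 37.7 CPM in lncSLCC1 siRNA libraries and at 28.3, 27.6 and 26.4 CPM in control siRNA libraries (0.45, SE 0.091, adjusted p = 0.0124). Its call was lost without any 1 lncSLCC1 siRNA library or without control siRNA replicate 2, at adjusted p of 0.062 to 0.0821. ZNF143 itself was at 35.1, 30.5 and 32.4 CPM in lncSLCC1 siRNA libraries and at 30.7, 30.7 and 35.0 CPM in control siRNA libraries, with overlap. The other rise was ZNF410, an activator of CHD4, which lies below the 5 CPM threshold. It was at 1.99, 2.43 and 2.34 CPM in lncSLCC1 siRNA libraries and at 1.495, 1.04 and 1.24 CPM in control siRNA libraries. Of its words 94.98% are shared with other annotated genes, so its reads are uncertain. The ZNF410 call was lost with DESeq2 (adjusted p = 0.089), with the replicate block (adjusted p = 0.059) and without any 1 library other than control siRNA replicate 1 (adjusted p up to 0.162).

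Of 16 tested genes listed for work on RNA, ribosomes, ubiquitin or mitosis, 0 rose and 0 fell in the edgeR test. Of all genes tested, 6.46% rose and 7.39% fell. In the list, 2 were higher and 1 lower at an unadjusted p under 0.05. This list holds some of the most read genes of the set. ZNF638, an RNA-binding nuclear protein with the highest mean CPM, was at 258, 258 and 272 CPM in lncSLCC1 siRNA libraries and at 155, 271 and 293 CPM in control siRNA libraries. The groups overlapped, with control siRNA replicate 1 low and the other controls as high as the lncSLCC1 siRNA libraries, and the log2 fold change of 0.13 became -0.10 without that library. ZNF207, a kinetochore protein, was at 198, 189 and 189 CPM in lncSLCC1 siRNA libraries and at 200.3, 220.4 and 213 CPM in control siRNA libraries (-0.14, 95% interval -0.30 to 0.03). ZNF207 was called lower with GC and length offsets (-0.45, adjusted p = 0.0356) and without control siRNA replicate 1 (-0.18, adjusted p = 0.0165). ZNF598, a ubiquitin ligase that senses collided ribosomes, was at 141, 133 and 133 CPM in lncSLCC1 siRNA libraries and at 170.4, 149 and 149 CPM in control siRNA libraries (-0.21, adjusted p = 0.122), and it was called lower with the offsets (adjusted p = 0.00897). ZNF658, below the threshold, had the smallest p of the list (adjusted p = 0.0797).

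Among the 5 most read genes, ZNF664 was the one that rose. It was at 249, 253 and 254 CPM in lncSLCC1 siRNA libraries and at 131, 173 and 192 CPM in control siRNA libraries (log2 fold change 0.61, SE 0.123, adjusted p = 0.0128), without overlap. The call was lost without any 1 lncSLCC1 siRNA library or without control siRNA replicate 2, at adjusted p of 0.0566 to 0.0683. Per kilobase of its longest transcript ZNF664 had 49.3 CPM in lncSLCC1 siRNA libraries and 32.3 CPM in control siRNA libraries, and ZNF638 had 38.5 CPM per kilobase in lncSLCC1 siRNA libraries and 35.1 in control siRNA libraries. ZNF703, a transcriptional cofactor, was at 163, 151 and 138 CPM in lncSLCC1 siRNA libraries and at 207, 191 and 166 CPM in control siRNA libraries (-0.31, adjusted p = 0.0628), without overlap. ZNF703 was called lower with no low-count filter (adjusted p = 0.0107), with the replicate block (0.041), with GC and length offsets (0.00326), and without control siRNA replicate 1 (0.00997) or control siRNA replicate 3 (0.0129).

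The 7 falls were smaller than the leading rises, between -0.60 and -0.35 on the log2 scale, and none holds the KRAB pattern. ZNF296 was at 9.30, 9.90 and 7.64 CPM in lncSLCC1 siRNA libraries and at 15.7, 14.1 and 11.2 CPM in control siRNA libraries (-0.60, SE 0.160, adjusted p = 0.0353). ZNF219 was at 7.71, 9.77 and 11.5 CPM in lncSLCC1 siRNA libraries and at 15.4, 14.8 and 12.6 CPM in control siRNA libraries (-0.57, SE 0.159, adjusted p = 0.0415). ZNF746, also called PARIS, a repressor of the gene for PGC-1alpha that parkin marks for degradation, was at 27.2, 26.2 and 28.4 CPM in lncSLCC1 siRNA libraries and at 40.5, 35.1 and 33.2 CPM in control siRNA libraries (-0.41, adjusted p = 0.0328). ZNF746 holds the looser KRAB pattern. ZNF414, ZNF692 and ZNF276 fell by 0.42, 0.40 and 0.35 on the log2 scale, with adjusted p of 0.0438, 0.0292 and 0.0415. In all 7 the groups did not overlap, which was a condition for naming them here. ZNF414 lost its call with library totals (adjusted p = 0.0609), DESeq2 (0.0532) and the replicate block (0.0612), ZNF276 with totals (0.0603) and the block (0.0541), and ZNF219 with totals (0.0639). Each of the 7 calls was lost without any 1 lncSLCC1 siRNA library or without control siRNA replicate 2, at adjusted p of 0.062 to 0.190, with the direction kept.

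Base composition moved with the fold changes. Across 304 genes with an annotated transcript, log2 fold change and GC content had a Spearman rho of -0.59, a description across genes that share libraries. Within the KRAB-pattern genes it was -0.57 (n = 133) and within the genes without the pattern -0.55 (n = 168). Of the 163 genes under 45% GC, 34 rose (20.9%) and 0 fell, with 80 higher and 1 lower at an unadjusted p under 0.05, and the median was 0.35. Of the 141 genes at 45% GC or more, 14 rose (9.93%) and 7 fell (4.96%), with a median of -0.01. Over all genes tested, those under 45% GC were called higher in 6.27% and lower in 4.2%, with a median of 0.10. At 45% GC or more these shares were 7.05% and 9.96%, with a median of -0.05. KRAB-pattern genes had a median GC content of 42.5% and the others 47.9%. Within genes under 45% GC, 25 of 92 KRAB-pattern genes rose, with a median of 0.38, and 8 of 68 without the pattern, with a median of 0.25. At 45% GC or more, 5 of 41 with the pattern rose, with a median of 0.11, and 9 of 100 without it, with a median of -0.04. With offsets for GC content and transcript length in the fit, 78 genes were higher (25.3%) and 27 lower. Of all genes tested, 11.7% were then called higher and 18.5% lower. Higher calls made up 74.3% of the calls among the ZNF genes, where the fit without offsets had 87.3%. Among KRAB-pattern genes 45 were higher and 2 lower with the offsets, with a median of 0.23. The median over the 308 genes was then 0.11 and over all genes tested -0.02.

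**Figure D4:**
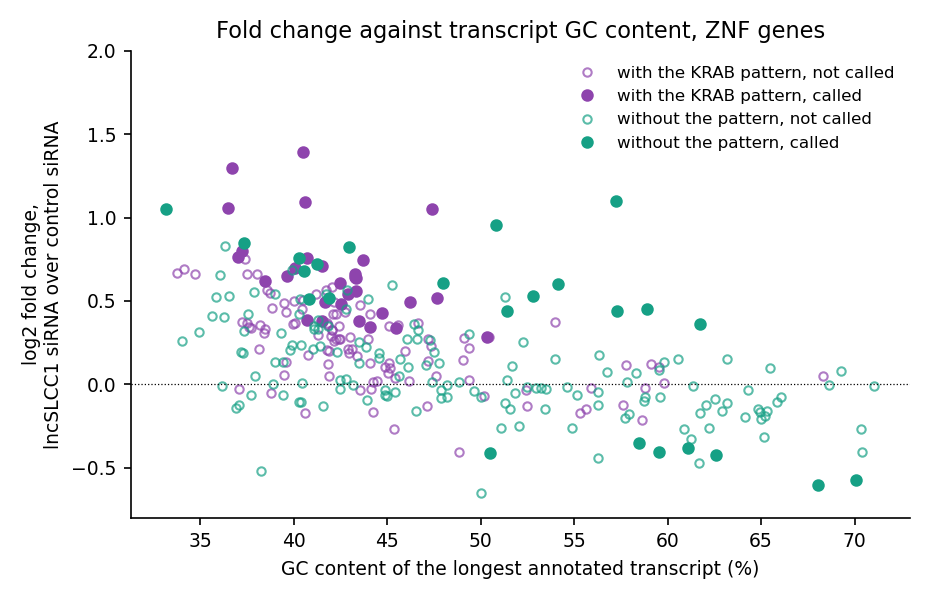
Log2 fold change (lncSLCC1 siRNA over control siRNA, vertical axis) against the GC content of the longest annotated transcript (percent, horizontal axis), 1 point per ZNF gene with a coding sequence. Filled points are the called genes; the 7 falls lie between 50.5% and 70.1% GC, and 25 of the 30 rises with the KRAB pattern and 8 of the 17 without it lie under 45%.

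The number of fingers, position and sequence sharing are described in the same way, with no test. Of 164 genes with at least 10 finger patterns 32 rose and 1 fell (median 0.33), and of 130 genes with 1 to 9 patterns 13 rose and 6 fell (median 0.01). The rho between fold change and finger number was 0.36 (n = 301), and GC content differed as well, with medians of 42.9% for 10 or more fingers and 47.8% for 1 to 9. On chromosome 19 lay 117 genes, of which 22 rose (18.8%) and 2 fell, and elsewhere 187, of which 26 rose (13.9%) and 5 fell. Of 62 genes that share more than 20% of their 31-base words with other genes, 15 rose (24.2%) and 1 fell (1.61%), with a median of 0.35. Of 70 genes that share less than 1%, 9 rose (12.9%) and 2 fell (2.86%), with a median of 0.05. Of all genes tested, 6.46% rose and 7.39% fell. A word counted as shared if a transcript of any other annotated gene held it on either strand. Near-copies, readthrough entries and overlapping genes were thus not told apart. The rho between fold change and the share of shared words was 0.29 among KRAB-pattern genes (n = 133) and 0.06 among genes without the pattern (n = 168). How far misassigned reads among near-copies or overlapping genes contribute was not tested. Not all ZNF symbols name C2H2 proteins: the finger pattern was absent from 7 coding sequences. Among them were ZNF185 and ZNF862, 2 genes that rose (0.44 each) and are named here after their values were seen. The ZNF185 call was lost without any 1 lncSLCC1 siRNA library or without control siRNA replicate 2 (edgeR adjusted p up to 0.157). That of ZNF862 was lost without any 1 library other than control siRNA replicate 1 (edgeR adjusted p up to 0.138).

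Many of the ZNF genes are neighbours, and their signs are given by run. In the annotation, 130 of the genes stood in 48 runs of at least 2 genes with no other protein-coding gene starting between them. In 28 runs all fold changes were above 0, in 4 all were below 0, and in 16 the signs were mixed. The longest runs held 6 genes each. On chromosome 19, ZNF83, ZNF611, ZNF600, ZNF28, ZNF468 and ZNF320 had log2 fold changes of 0.54, 0.51, 0.33, 0.43, 0.76 and 0.37, of which ZNF468 was called (adjusted p = 0.0152). That call was lost without any 1 lncSLCC1 siRNA library or without control siRNA replicate 2 (adjusted p up to 0.0821). Without control siRNA replicate 1 the 6 values, in the same order, were 0.29, 0.32, 0.16, 0.28, 0.59 and 0.22, so that 5 of them dropped by over 1.5 times, and ZNF83, ZNF28, ZNF468 and ZNF320 were called. ZNF468 and ZNF320 share 99.2% and 99.5% of their words with other annotated genes, and their reads cannot be placed with certainty. On chromosome 7, ZNF398, ZNF282, ZNF212, ZNF783, ZNF777 and ZNF746 had log2 fold changes of -0.04, -0.11, -0.06, -0.18, -0.09 and -0.41, of which ZNF746 was called. ZNF282 and ZNF777 stood at -0.07 and -0.01 without control siRNA replicate 1. ZNF398 and ZNF212 turned to 0.03 and 0.01 when libraries were scaled by totals. GC content ran from 39.6% to 42.0% in the run on chromosome 19 and from 47.9% to 63.2% in that on chromosome 7.

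**Figure D5:**
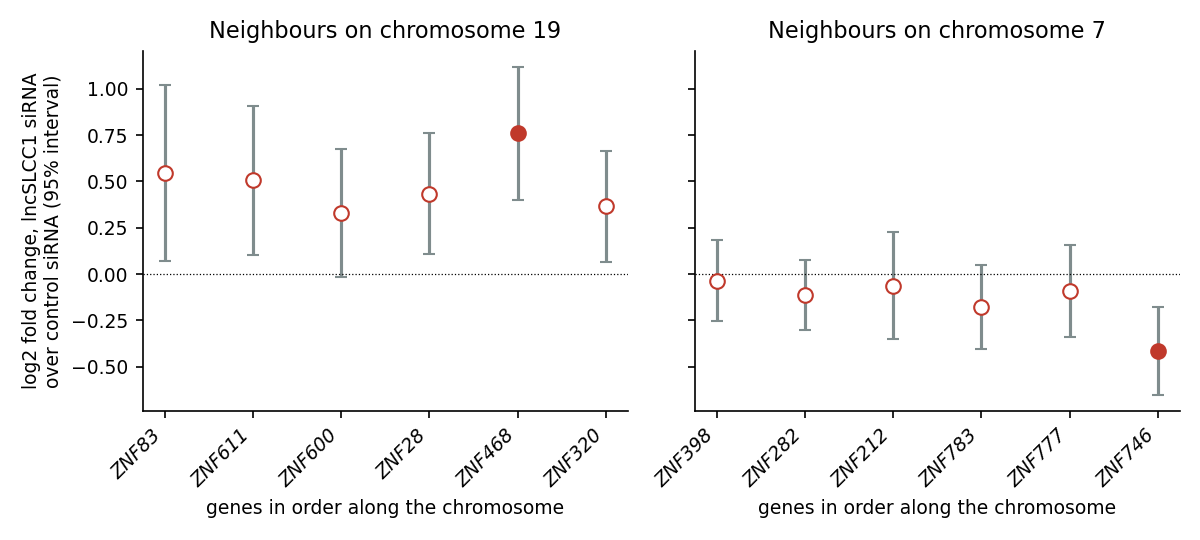
Log2 fold change (lncSLCC1 siRNA over control siRNA) of the genes in the longest runs of neighbouring ZNF genes, in order along the chromosome, with 95% intervals as error bars and called genes filled. All 6 genes of the chromosome 19 run lie above 0, and all 6 of the chromosome 7 run below 0.

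ZNF765 and ZNF761 stand next to each other on chromosome 19, and both rose. RefSeq also lists a readthrough entry that joins them, ZNF765-ZNF761, and whether the 2 rises share a transcript was not tested. ZNF761 was at 91.6, 96.5 and 94.05 CPM in lncSLCC1 siRNA libraries and at 48.9, 58.4 and 66.2 CPM in control siRNA libraries (log2 fold change 0.70, SE 0.111, adjusted p = 0.0046), without overlap and with any 1 library left out. Their promoters are related to each other and to that of ZNF845, which lies nearby and rose as well. RefSeq promoters (GRCh38.p14, 250 bases before to 50 bases after the start) were found for 259 of the 308 genes and 37 of the 48 that rose. Those of ZNF765 and ZNF845, at chr19:53394899-53395198 (+) and chr19:53333499-53333798 (+), are shown because both genes rose and 85.7% of their bases were identical; capitals mark a word of 16 bases that both hold.
ZNF765: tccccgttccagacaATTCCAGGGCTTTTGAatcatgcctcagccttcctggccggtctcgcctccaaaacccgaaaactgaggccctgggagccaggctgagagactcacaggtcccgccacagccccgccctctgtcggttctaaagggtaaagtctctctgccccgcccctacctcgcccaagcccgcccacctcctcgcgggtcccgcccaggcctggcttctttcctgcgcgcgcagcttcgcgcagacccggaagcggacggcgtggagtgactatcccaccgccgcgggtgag
ZNF845: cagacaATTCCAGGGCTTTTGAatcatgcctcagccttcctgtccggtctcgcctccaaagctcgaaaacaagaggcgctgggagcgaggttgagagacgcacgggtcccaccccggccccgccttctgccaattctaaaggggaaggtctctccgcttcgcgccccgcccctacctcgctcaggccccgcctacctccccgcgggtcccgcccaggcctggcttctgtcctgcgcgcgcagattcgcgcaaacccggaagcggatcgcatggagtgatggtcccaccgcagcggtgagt
The word ATTCCAGGGCTTTTGA is the longest that these promoters share with those of ZNF761 and ZNF468, 4 genes picked after their values were seen. Searched on both strands, it occurs in 10 of 27305 RefSeq promoters of 300 bases (0.0366%), some of which belong to overlapping or readthrough entries. It was found in 5 of the 259 promoters of the set, the 4 from which it was taken and that of ZNF83. Those 4 are also the ones found among the 37 promoters of genes that rose, so that count follows from how the word was chosen. The match describes related sequence and says nothing of a factor. In ZNF761 and ZNF468 the word and the bases beside it read as follows, with the same capitals.
ZNF761: acaATTCCAGGGCTTTTGAgtc
ZNF468: actATTCCAGGGCTTTTGAatt
These windows lie at chr19:53431734-53432033 (+) and chr19:52857570-52857869 (-). The promoters of ZNF431 and ZNF91, both on chromosome 19, were 88.3% identical, and both genes rose (0.80 and 0.76). The ZNF431 call was lost without lncSLCC1 siRNA replicate 2 or 3 or without control siRNA replicate 2 (edgeR adjusted p up to 0.0867). Promoters of the set held a median of 23 CpG dinucleotides, those of the genes that rose 22, and all promoters 14.

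ZNF genes below the threshold and families of zinc-finger genes picked by name gave a comparison. Of 246 ZNF genes under 5 CPM, 82 had enough reads to be tested, and a gene could pass this filter on the reads of a single group. Of the 82, 12 rose (14.6%) and 0 fell, where 15.6% of the 308 genes and 6.46% of all genes tested rose. The median of the 82 was 0.41, with 28 higher and 0 lower at an unadjusted p under 0.05. DESeq2 called 8 and 0 of these, and limma-voom 12 and 0. Of the 308 genes, 7 had a control siRNA mean under 5 CPM and reached the threshold through the lncSLCC1 siRNA libraries. Of these, 3 were among the 48, ZNF702P being one of them. Conversely, 10 ZNF genes left out of the set had a lncSLCC1 siRNA mean of at least 5 CPM. Of 65 genes with ZFP, ZKSCAN, ZSCAN or ZBTB names at 5 CPM or more, 9 rose (13.8%) and 4 fell (6.15%), with a median of 0.10. Of all genes tested, 6.46% rose and 7.39% fell. ZSCAN30 was at 19.1, 22.7 and 22.8 CPM in lncSLCC1 siRNA libraries and at 8.12, 9.37 and 10.7 CPM in control siRNA libraries, with a log2 fold change of 1.19 (SE 0.138, adjusted p = 0.000876). Differences between these families and the ZNF genes were not tested.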

How the data were processed

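For each of the 6 libraries the authors deposited a table of raw counts by gene symbol. Per the submitters' processing notes, TopHat2 version 2.0.11 and HTSeq were used with genome builds hg19 and GRCh37. The sources used here name neither the annotation release nor a strand setting, so reads of overlapping or antisense genes cannot be told apart. Reads assigned to no feature made up 7.09% to 7.58% in lncSLCC1 siRNA libraries and 5.42% to 7.18% in control siRNA libraries. Reads whose alignment was not unique made up 12.8% to 13.1% and 12.9% to 13.8%, in the same order of groups. Reads ambiguous between genes made up 8.83% to 8.99% and 8.99% to 10.1%. All of these were left out, and the not-unique and ambiguous shares were highest in control siRNA replicate 1.

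Counts were tested with edgeR 4.0.16 (R 4.3.3), by quasi-likelihood with TMM library sizes and the default expression filter, over all 15242 genes that passed it, with Benjamini-Hochberg adjustment over all of them. Genes with an adjusted p under 0.05 were called. CPM values use TMM library sizes, except in the membership rule, and the biological coefficient of variation was 10.9%. Within each group the libraries differed by more than sampling noise. Counts of the same comparison were also simulated, with 15030 genes passing the filter. In them edgeR recovered 86.6% of 97 genes changed by 1 log2 unit and 99.0% of 98 changed by 2. It made 13 false calls. The simulation used 1 dispersion per gene for all 6 libraries and set no library apart, unlike control siRNA replicate 1 here. Changes under 1 log2 unit, which most calls given here are, were not simulated.

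The genes and lists were chosen with earlier results of these data known. Named were the 10 largest called rises and all 7 called falls. Their groups had to be without overlap, a condition met by all 48 called rises and all 7 called falls. Also named were the 5 highest mean CPM, genes beside the threshold, called genes of each list, the longest runs and calls kept in all leave-one-out fits. TRIM28, SETDB1, ZNF143, ZNF217, ZNF274, ZNF431, ZNF445 and ZSCAN30 were added for their roles or as examples. The GC, finger and word-sharing classes were set after values were seen.

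Length, GC content, order and coding sequences came from GENCODE 29 on GRCh38, by symbol, for 304 genes, and from the longest transcript. The plan named RefSeq proteins, and translated coding sequences were used in their place (Biopython 1.88). Finger patterns were counted as Cys-Cys-His-His spacings. Alternatives tried were library totals, DESeq2 size factors, other filters and thresholds, DESeq2 1.42.0, limma-voom 3.58.1, the replicate number as a block, GC and length offsets, a looser KRAB pattern and each library left out.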

Additional observations from a re-analysis of the deposited data

How the results depend on the processing

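Counts are given as rises and falls. DESeq2 size factors, a filter at a mean of 1 CPM, DESeq2's own test, limma-voom and set thresholds of 2 or 10 CPM moved no count by over 1.5 times. Library totals shift the median of all genes to 0.08 (log2), and 9.46% of all genes tested then rose and 5.34% fell. With totals, 4 falls were left among the ZNF genes, all without the KRAB pattern. There were 2 falls in the other families and 2 rises among corepressors. With no low-count filter there were 87 rises and 12 falls, where 5.33% of all genes tested rose and 5.57% fell. Of these, 48 rises were with the KRAB pattern, and 35 rises and 12 falls without it. Under 5 CPM there were then 19 rises, and among corepressors 2 rises. With GC and length offsets there were 78 rises and 27 falls, 2 falls with the pattern, 29 rises and 24 falls without it, 14 rises and 10 falls in the other families, and 2 rises and 6 falls among corepressors. The looser KRAB pattern held 1 fall. The cause of these shifts was not tested.

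Leaving out each library in turn gave 5 to 87 rises and 0 to 22 falls among the ZNF genes, 2 to 52 rises and 0 to 2 falls with the KRAB pattern, and 2 to 33 rises and 0 to 20 falls without it. It gave 1 to 16 rises under 5 CPM, 3 to 17 rises and 0 to 9 falls in the other families, and 0 to 5 rises and 1 to 4 falls among corepressors. ZNF638 turned to -0.016 with the offsets and ran from -0.10 (without control siRNA replicate 1) to 0.30 with each library left out. ZNF699 ran from -0.011 (without control siRNA replicate 1) to 0.32. ZNF398 turned to 0.033 with totals and ran from -0.073 to 0.024 (without control siRNA replicate 3). ZNF212 turned to 0.0064 with totals and ran from -0.16 to 0.0078 (without control siRNA replicate 2). These are log2 fold changes, none of them called.

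With the replicate number as a block there were 56 rises and 8 falls, of which 41 and 5 were among those called without it. Of all genes tested, 6.51% rose and 6.95% fell in that fit. The deviations of same-numbered libraries had correlations over genes of 0.09, 0.00 and -0.02 for numbers 1, 2 and 3. Over all pairs of libraries across the groups, these ran from -0.08 to 0.10, and not every library correlated best with its own number. Correlations this weak cannot decide whether same-numbered libraries were prepared together, and the labels do not state it. Replicate numbers throughout are those of the sample labels. Numbers in the names of the deposited tables differ, and by them the label numbers 2 and 3 would pair the same libraries while the libraries numbered 1 would share no number. Depth limits the least read genes: the fewest reads of a ZNF gene in a library were 33.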
